A study of Mus musculus with 16 samples.

Results

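The genes of the translation initiation factors were followed in myeloid-derived suppressor cells (MDSCs), immature myeloid cells that expand in tumor-bearing hosts. Members were all gene symbols that begin with Eif and a digit, with the eIF2 alpha kinases (Eif2ak) and symbols ending in -ps left out, which gave 51 of the 24421 symbols counted. QuantSeq, which measures mRNAs by counting reads near their 3′ end, was run on monocytic (M-MDSC) and granulocytic (G-MDSC) cells sorted from the spleens of 8 mice. The 4 groups were M-MDSCs of WT mice, M-MDSCs of Nlrp3-/- mice, G-MDSCs of WT mice and G-MDSCs of Nlrp3-/- mice, with 4 libraries each and 16 in all. Nlrp3 encodes the sensor of the NLRP3 inflammasome, and in Nlrp3-/- mice it was disrupted in every cell of the host by an inserted EGFP cassette. All mice were on a C57BL/6 background, by the study's methods aged 6 to 12 weeks and matched for age and sex, and carried tumors from 300000 B16.F10 melanoma cells, in which Nlrp3 was not targeted. By the same methods C57BL/6J mice were purchased, whereas the Nlrp3-/- line was obtained from another laboratory. The paper also reports smaller B16.F10 tumors in Nlrp3-/- than in WT mice. Effects of genotype, of mouse source and of tumor size cannot be told apart here. Each library came from 1 mouse, so the M-MDSC and G-MDSC libraries with the same number share a mouse, whereas WT and Nlrp3-/- libraries never do. All samples analysed here came from tumor-bearing mice, for which the study's methods give day 15 of tumor growth as the default and name no other day for the sequenced mice.

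Translation starts when the small ribosomal subunit, charged with initiator tRNA by eIF2, is loaded onto the capped 5′ end of an mRNA, scans to a start codon and is joined by the large subunit. eIF4E binds the cap, eIF4G links it to the ribosome through eIF3, eIF4A unwinds the leader, and eIF1, eIF1A and eIF5 control recognition of the start codon. The supply of eIF4E is held down by the 4E-BPs and that of active eIF2 by phosphorylation of its alpha subunit, and myeloid cells use both routes to adjust protein synthesis under stress or growth signals.

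Libraries held 2295967 to 6079866 counts. Levels are given as CPM (counts scaled to a common library size) scaled by TMM factors over all 16 libraries. The smallest amount treated as present, 3 counts, corresponds to 0.493 to 1.31 CPM by library size alone, before the TMM factors, and covers counting error only. The targeted gene read 40.7, 88.9, 53.2 and 79.8 CPM in WT and 0.698, 1.88, 0.835 and 0.514 CPM in Nlrp3-/- M-MDSCs, and 288, 252, 331 and 313 CPM against 13.6, 11.4, 7.04 and 5.51 CPM in G-MDSCs. Defining genes followed the sort. The 8 monocyte markers summed to 5637 to 9604 CPM in M-MDSC and 638 to 1226 CPM in G-MDSC libraries, and the 9 neutrophil markers measured (Ly6g was not among them) to 1301 to 7700 and 112100 to 171900 CPM. The highest M-MDSC value, 7700 CPM, stood in WT replicate 2 alone, the other 7 M-MDSC libraries lying between 1301 and 2301 CPM. Melanoma markers stayed at or below 1.45 CPM in sum, and the markers of B cells, of T and NK cells, of dendritic cells, of erythroid cells, and of eosinophils and basophils at or below 289, 179, 271, 123 and 68.8 CPM, the sums of the first 3 lists being higher in G-MDSCs than in M-MDSCs of WT mice. For the dendritic cell list this came from Itgax (mean 17.3 CPM in WT M-MDSCs, 176 CPM in WT G-MDSCs). Flt3 (17.4 and 0.566 CPM) and Cd209a (4.78 and 0.121 CPM) went the other way. Of the 8 erythroid markers 6 had 0 counts throughout each group, so the erythroid sum rests on the remaining genes.

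Of the 51 members, 46 passed the filter on low counts in every comparison and 5 passed in none. Eif2s3y, Eif3j1, Eif3j2 and Eif4e1b had 0 counts in all 16 libraries, and Eif5a2 had 0 to 10 counts per library. Of the 50-base stretches at the 3′ end of Eif3j2, 88.9% also occur in Eif3j1, so a listing at 0 for Eif3j2 does not show that its mRNA was absent. At the 3′ end of Eif3j1 0% of the stretches occur in another gene, and whether its mRNA was absent was not tested. Eif2s3y lies on the Y chromosome, and the other Y-linked genes examined, Ddx3y, Kdm5d and Uty, had at most 1 count in any library. Xist, a transcript of female cells, and these Y-linked genes summed to 378 to 675 CPM in M-MDSC and 199 to 405 CPM in G-MDSC libraries. Nearly all of this was Xist, so the 16 libraries read as female. Its X-linked counterpart Eif2s3x, which encodes the same gamma subunit of eIF2, was read at 13.01, 27.8, 20.3 and 16.8 CPM in WT and 27.9, 6.65, 6.89 and 21.8 CPM in Nlrp3-/- M-MDSCs, and at 7.34, 9.48, 21.8 and 12.1 CPM and 21.9, 21.0, 14.5 and 14.4 CPM in the G-MDSC groups. These ranges overlap in every comparison. Some reads of Eif2s3x may be shared, because 42% of the 50-base stretches at its 3′ end also occur in another annotated gene. The same holds for 29.5% of the stretches of Eif4a3, 22.6% of those of Eif4e and 20.3% of those of Eif2s2. Together the members took 0.716% to 0.845% of the counts of an M-MDSC library and 0.368% to 0.446% of a G-MDSC library, 2 ranges that do not meet. These are shares of raw counts. With TMM scaling the members summed to 5797 to 6142 CPM in WT and 5202 to 6419 CPM in Nlrp3-/- M-MDSCs. In G-MDSCs they summed to 5049 to 5510 CPM in WT and 5154 to 5881 CPM in Nlrp3-/- mice, so the subsets were closer and overlapped in Nlrp3-/- mice.

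Many mRNAs of the translation machinery begin with a C followed by a run of pyrimidines, the 5′ terminal oligopyrimidine (TOP) motif, through which mTORC1 controls their translation. Windows from 10 bases before to 20 bases into the annotated transcript start (RefSeq, GRCm38.p6) were searched on the transcribed strand for a C within 5 bases of the start that is followed by at least 4 bases which are each C or T. Such a run was found in 10 of the 39 members with a start sequence (25.6%), against 21.2% of 27025 genes and 31 of 65 ribosomal protein genes (47.7%). Shown first are 3 eIF3 subunits in which the run, in capitals, was found. They are followed by members on which the comparisons turn, in lower case throughout because no run was found: 3 that were lower in Nlrp3-/- cells of both subsets (Eif3a, Eif5b, Eif4ebp2) and 2 that were higher in G-MDSCs (Eif1, Eif5).
Eif3f, chr7:108934405-108934434, plus strand: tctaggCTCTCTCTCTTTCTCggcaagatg
Eif3l, chr15:79075213-79075242, plus strand: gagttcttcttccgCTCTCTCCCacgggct
Eif3b, chr5:140419295-140419324, plus strand: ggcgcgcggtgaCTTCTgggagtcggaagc
Eif3a, chr19:60790674-60790703, minus strand: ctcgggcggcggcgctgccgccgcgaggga
Eif5b, chr1:37998000-37998029, plus strand: ctgggttcccacctggccggcggctctact
Eif4ebp2, chr10:61452650-61452679, minus strand: cgcagcgggacgaccgggcgagagcaggcg
Eif1, chr11:100319939-100319968, plus strand: ggcgtcacaggggcggctatataagtgaat
Eif5, chr12:111538091-111538120, plus strand: cgacgtgcatgcgagccaatgacaagagaa

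**Figure D1:**
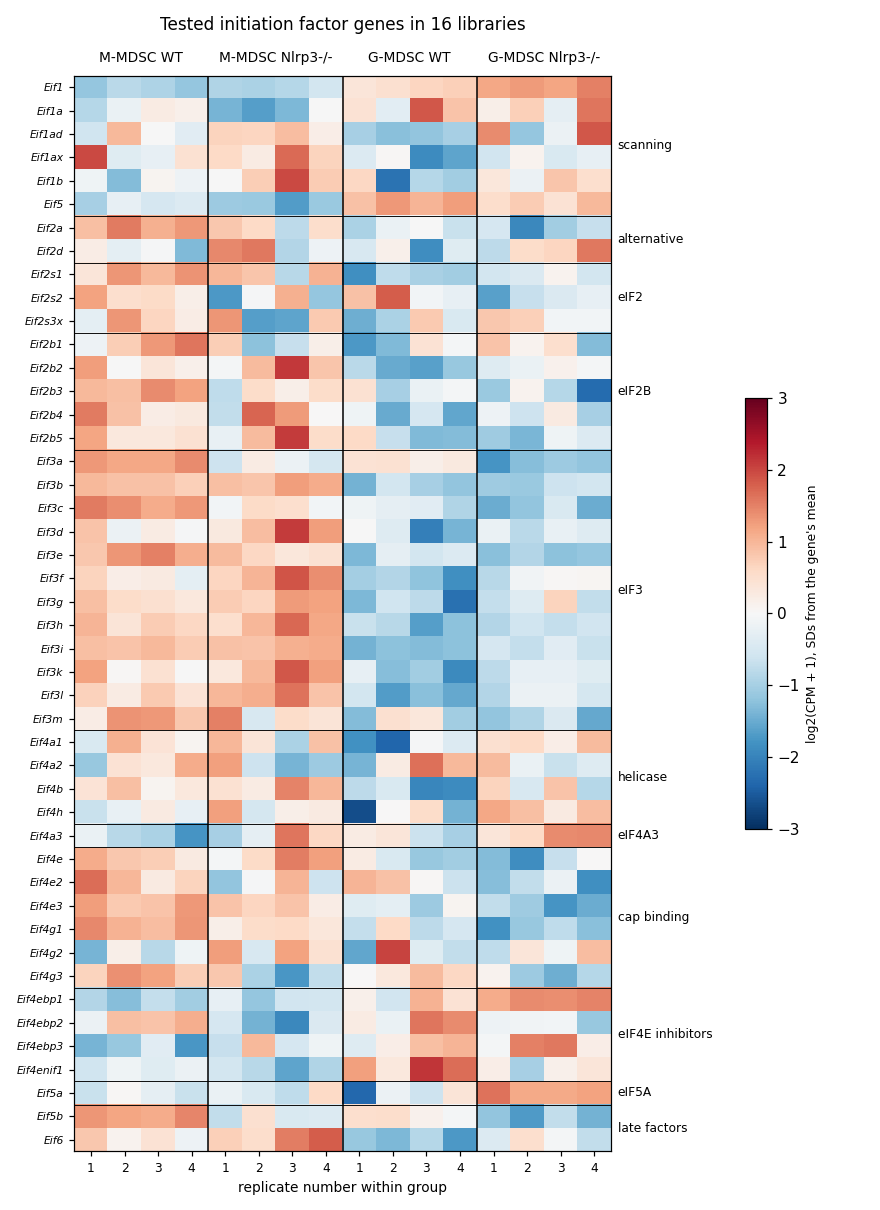
Level of the 46 tested members in the 16 libraries, as log2(CPM + 1) centred on each gene's mean and divided by its SD, with genes ordered by role and libraries by group and replicate number. Most eIF3 rows are high in the 8 M-MDSC libraries and low in the 8 G-MDSC libraries, Eif1 and Eif5 run the opposite way, and Eif3a and Eif5b are also lower in the Nlrp3-/- libraries of each subset.

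The first question was which initiation factor genes differ between Nlrp3-/- and WT mice within a subset. In both subsets Eif3a, the scaffold subunit of eIF3, Eif5b, the GTPase of subunit joining, and Eif4ebp2, an inhibitor of eIF4E, were lower in Nlrp3-/- cells, of which Eif5b lost its call in both with a correction for GC content and transcript length. Otherwise most members were not distinguishable between genotypes, 35 of 46 being called in neither subset. In M-MDSCs 1 member rose (Eif3f) and 4 fell (Eif3a, Eif5b, Eif4ebp2, Eif3c). In G-MDSCs 4 rose (Eif2b2, Eif4ebp1, Eif4a1, Eif3i) and 5 fell (Eif3a, Eif5b, Eif4ebp2, Eif4g3, Eif4enif1). A call required a Benjamini-Hochberg adjusted p below 0.05 over all genes tested, from edgeR's quasi-likelihood F test, together with a change of over 1.5-fold. Of the tested members 2.17% were called higher and 8.70% lower in M-MDSCs, beside 3.51% and 7.10% of all 9986 genes tested, and 8.70% higher and 10.9% lower in G-MDSCs, beside 4.70% and 11.7% of 9273 genes. These shares lie near the background. In sorted bulk cells, fewer cells of a type and less mRNA per cell cannot be told apart. The median log2 fold change of the members was 0.094 in M-MDSCs and 0.10 in G-MDSCs, against 0.066 and 0.034 over all genes tested.

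Eif3a read 514, 482, 484 and 541 CPM in WT M-MDSCs (mean 505 ± 28.0, SD, n = 4) and 216, 321, 263 and 226 CPM in Nlrp3-/- M-MDSCs (257 ± 47.4). All 4 Nlrp3-/- libraries lay below all 4 WT libraries, and the log2 fold change was -0.95 (SE 0.15, adjusted p = 0.00436) by edgeR (quasi-likelihood F test, adjusted by Benjamini-Hochberg). In G-MDSCs it read 347, 353, 308 and 325 CPM in WT and 128, 161, 174 and 167 CPM in Nlrp3-/- cells, again without overlap, for a log2 fold change of -1.17 (SE 0.15, adjusted p = 0.000177) by the same edgeR test. Leaving out any 1 library did not end the call of Eif3a in either subset. Eif3a and Eif3c form the core on which the other eIF3 subunits assemble. Eif3c read 263, 244, 219 and 236 CPM in WT and 134, 175, 170.4 and 135 CPM in Nlrp3-/- M-MDSCs, lower in every Nlrp3-/- library, with a log2 fold change of -0.62 (SE 0.15, adjusted p = 0.0211) by the edgeR test. In G-MDSCs, where it was not called, it read 96.1 to 132 CPM in WT and 75.5 to 116 CPM in Nlrp3-/- cells, with a log2 fold change of -0.51 (SE 0.18, adjusted p = 0.0657) by the edgeR test. The Eif3c call in M-MDSCs rests on single libraries, since it was lost without WT replicate 1, 2 or 4 or Nlrp3-/- replicate 4, the log2 fold change then being -0.63 to -0.56 and the adjusted p of the edgeR fit up to 0.0791.

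**Figure D2:**
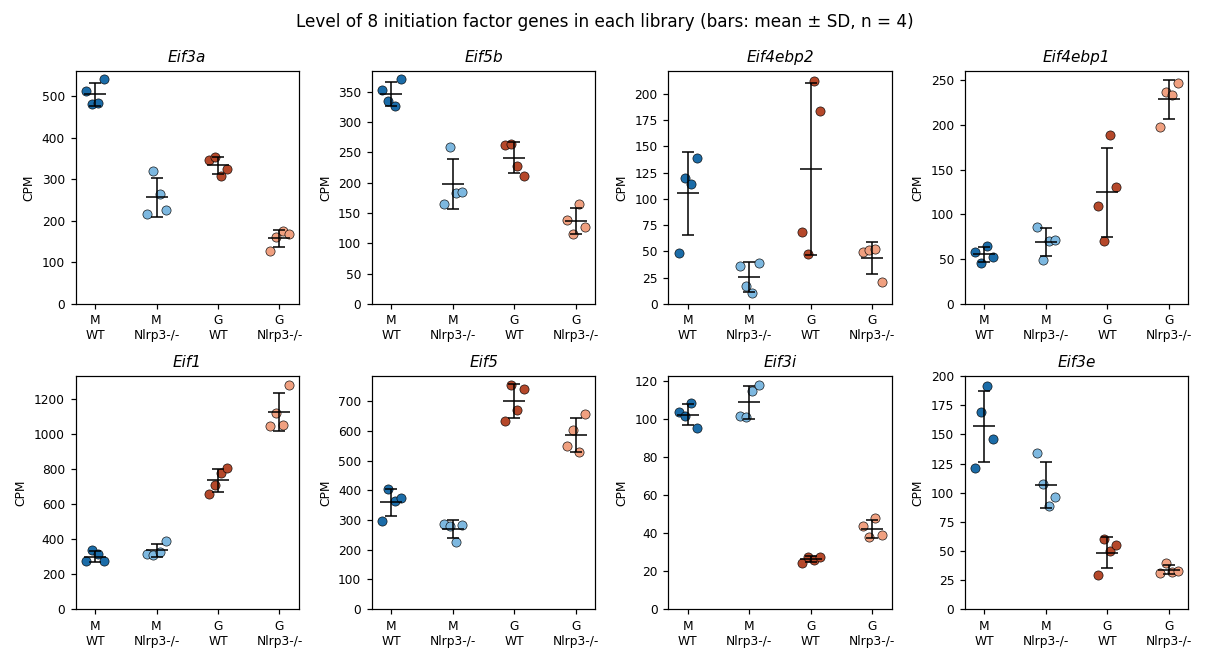
Level in CPM of 8 members in each library, with the mean and SD of the 4 libraries per group, each panel's axis starting at 0. Eif3a and Eif5b drop from WT to Nlrp3-/- in both subsets, Eif4ebp2 is spread widely in WT G-MDSCs, and Eif1, Eif5, Eif3i and Eif3e separate M-MDSCs from G-MDSCs without overlap.

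Most eIF3 subunits were not called with Eif3a, and 8 of the 12 tested had a positive log2 fold change in each subset, which became 6 in M-MDSCs and 5 in G-MDSCs with the correction for GC content and length. Of all genes tested, 55.0% in M-MDSCs and 51.9% in G-MDSCs were positive without the correction. Eif3f, which also binds regulatory kinases, read 452, 377, 386 and 313 CPM in WT and 446, 518, 721 and 598 CPM in Nlrp3-/- M-MDSCs. Its highest WT library (452 CPM) exceeded the lowest Nlrp3-/- library (446 CPM), so the groups touched, and the log2 fold change was 0.60 (SE 0.18, adjusted p = 0.0482) by the edgeR test. The Eif3f call was lost without WT replicate 2, 3 or 4 or Nlrp3-/- replicate 2, 3 or 4, with adjusted p of 0.0912 to 0.155 in those edgeR fits, and also with DESeq2. In G-MDSCs Eif3f read 235, 249, 219 and 172 CPM and 254, 336, 353 and 356 CPM, without overlap but short of the threshold (0.48, SE 0.17, adjusted p = 0.0610, edgeR). Eif3i, a peripheral subunit held by Eif3b, read 24.0, 27.4, 25.9 and 27.2 CPM in WT and 43.4, 37.8, 47.9 and 39.1 CPM in Nlrp3-/- G-MDSCs. Every Nlrp3-/- library was higher, for a log2 fold change of 0.60 (SE 0.19, adjusted p = 0.0415) by the edgeR test, but each of the 8 fits without 1 library lost the call, with adjusted p of 0.0607 to 0.112. In M-MDSCs Eif3i read 95.3 to 109 CPM in WT and 101 to 118 CPM in Nlrp3-/- cells (0.11, SE 0.14, adjusted p = 0.611, edgeR). Eif3e fell short in both subsets, at -0.53 (SE 0.20, adjusted p = 0.0977) in M-MDSCs and -0.61 (SE 0.24, adjusted p = 0.0910) in G-MDSCs by the edgeR test, and the remaining tested subunits, Eif3b, Eif3d, Eif3g, Eif3h, Eif3k, Eif3l and Eif3m, ranged from -0.71 to 0.68 on the log2 scale without a call.

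Eif5b read 353, 335, 326 and 372 CPM in WT and 164, 259, 183 and 185 CPM in Nlrp3-/- M-MDSCs, all 4 Nlrp3-/- libraries lying below the WT libraries. In G-MDSCs it read 262, 263, 228 and 211 CPM and 138, 115, 164 and 127 CPM, again without overlap. The log2 fold change was -0.79 (SE 0.16, adjusted p = 0.0114) in M-MDSCs and -0.91 (SE 0.16, adjusted p = 0.00162) in G-MDSCs by the edgeR test. With the GC and length correction these became -0.36 and -0.35 and neither was called. Without Nlrp3-/- replicate 4 the adjusted p in M-MDSCs was 0.0503 by edgeR. Eif6, which keeps free large subunits from joining small ones, went the other way without a call, at 0.36 (SE 0.16, adjusted p = 0.157) and 0.35 (SE 0.18, adjusted p = 0.205) by the same edgeR test.

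Genes of the eIF4E inhibitors changed in both directions. Eif4ebp2 read 48.1, 119.8, 114 and 139 CPM in WT and 36.2, 16.6, 10.4 and 38.9 CPM in Nlrp3-/- M-MDSCs. Its WT replicate 1 was far below the other 3 WT libraries but above every Nlrp3-/- library, and the log2 fold change was -1.99 (SE 0.42, adjusted p = 0.0131) by the edgeR test. In WT G-MDSCs the libraries split widely, at 68.8, 47.4, 212 and 184 CPM, while Nlrp3-/- libraries read 49.4, 51.4, 52.2 and 21.0 CPM. The groups overlapped because WT replicate 2 lay below 3 of the Nlrp3-/- libraries. The log2 fold change in G-MDSCs was -1.64 (SE 0.42, adjusted p = 0.0159) by the edgeR test, and without Nlrp3-/- replicate 4, the lowest library, it was -1.40 with an adjusted p of 0.0531.

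Eif4ebp1, the best known 4E-BP, read 109, 70.1, 188 and 130 CPM in WT and 197, 236, 234 and 246 CPM in Nlrp3-/- G-MDSCs, all Nlrp3-/- libraries being higher, with a log2 fold change of 0.79 (SE 0.23, adjusted p = 0.0315) by the edgeR test. Its call was lost without G-MDSC WT replicate 1, 2 or 4 or Nlrp3-/- replicate 2, 3 or 4, at adjusted p of 0.0602 to 0.0823 in those edgeR fits. In M-MDSCs it read 58.3, 45.3, 64.6 and 52.8 CPM and 86.1, 48.8, 69.8 and 70.9 CPM, with overlap (0.35, SE 0.20, adjusted p = 0.259, edgeR). Eif4enif1 encodes 4E-T, which carries eIF4E to the nucleus and to processing bodies. It read 40.7, 30.1, 54.5 and 47.1 CPM in WT and 29.1, 19.5, 28.6 and 30.7 CPM in Nlrp3-/- G-MDSCs, a decrease with a small overlap (-0.77, SE 0.23, adjusted p = 0.0323, edgeR) that was lost without WT replicate 3 or 4 or any 1 of the 4 Nlrp3-/- libraries, at adjusted p of 0.0501 to 0.104. In M-MDSCs Eif4enif1 read 22.3, 26.0, 24.1 and 25.7 CPM and 22.6, 20.6, 16.1 and 20.2 CPM (-0.27, SE 0.19, adjusted p = 0.356, edgeR). Eif4ebp3 was called in neither subset, at log2 fold changes of 0.45 and 0.072, and its reads cannot be told from those of an overlapping gene model on the same strand.

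Among the cap-binding and helicase genes, Eif4g3, a paralog of the eIF4G scaffold, read 122, 137, 174 and 153 CPM in WT and 127, 82.0, 70.9 and 89.4 CPM in Nlrp3-/- G-MDSCs. Only Nlrp3-/- replicate 1 reached into the WT range, and the log2 fold change was -0.76 (SE 0.19, adjusted p = 0.0162) by the edgeR test. Without WT replicate 3 or Nlrp3-/- replicate 2, 3 or 4 the call was lost, at adjusted p of 0.0505 to 0.0600. Its change in M-MDSCs was as large but more variable, at 156, 202, 191 and 161 CPM in WT and 165, 86.0, 63.9 and 93.4 CPM in Nlrp3-/- cells (-0.75, SE 0.27, adjusted p = 0.0854, edgeR). Eif4a1, the main helicase, read 42.1, 33.2, 88.4 and 75.9 CPM in WT and 109.5, 116, 97.4 and 134 CPM in Nlrp3-/- G-MDSCs, without overlap (0.84, SE 0.26, adjusted p = 0.0412, edgeR). This call was lost without WT replicate 1 or 2 or any 1 of the 4 Nlrp3-/- libraries, at adjusted p of 0.0551 to 0.113. In M-MDSCs Eif4a1 read 74.1, 139, 107 and 93.2 CPM and 136, 106, 60.8 and 130 CPM, with a log2 fold change of 0.099 that was not called. The cap-binding protein genes Eif4e, Eif4e2 and Eif4e3 and the scaffold genes Eif4g1 and Eif4g2 were not called in either subset, at log2 fold changes of -0.87 to 0.25.

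For the factors that act at the start codon no genotype call was made. Eif1, the gatekeeper of start codon choice, came nearest, at 658, 707, 774 and 803 CPM in WT and 1046, 1121, 1052 and 1279 CPM in Nlrp3-/- G-MDSCs. The groups did not overlap and the adjusted p passed (0.52, SE 0.15, adjusted p = 0.0254, edgeR), but the change was under 1.5-fold. In M-MDSCs Eif1 read 272, 335, 313 and 274 CPM and 316, 307, 326 and 389.6 CPM (0.19, SE 0.15, adjusted p = 0.416, edgeR). Eif5, which triggers GTP hydrolysis on eIF2, was lower without a call in M-MDSCs (-0.39) and G-MDSCs (-0.35), and Eif1a, Eif1ad, Eif1ax and Eif1b lay between -0.33 and 0.52. Of eIF2 and its exchange factor eIF2B, 1 gene was called. Eif2b2, the beta subunit of eIF2B, read 54.1, 39.9, 38.0 and 46.7 CPM in WT and 64.7, 69.6, 80.6 and 74.2 CPM in Nlrp3-/- G-MDSCs, without overlap (0.61, SE 0.18, adjusted p = 0.0295, edgeR). This was lost without WT replicate 2, 3 or 4 or Nlrp3-/- replicate 2, 3 or 4, at adjusted p of 0.0557 to 0.0829. In M-MDSCs Eif2b2 read 129, 75.2, 88.3 and 80.9 CPM and 74.0, 113, 186 and 108 CPM, with overlap. Eif2s1, which carries the phosphorylation site read by the stress kinases, Eif2s2, Eif2s3x, the other eIF2B genes, and Eif2a and Eif2d, which can deliver tRNA in place of eIF2, lay between -0.74 and 0.45 on the log2 scale without a call. Eif4a3, a helicase of the exon junction complex (0.51, 0.38), and Eif5a, which relieves stalled ribosomes (0.089, 0.45), were not called either.

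**Figure D3:**
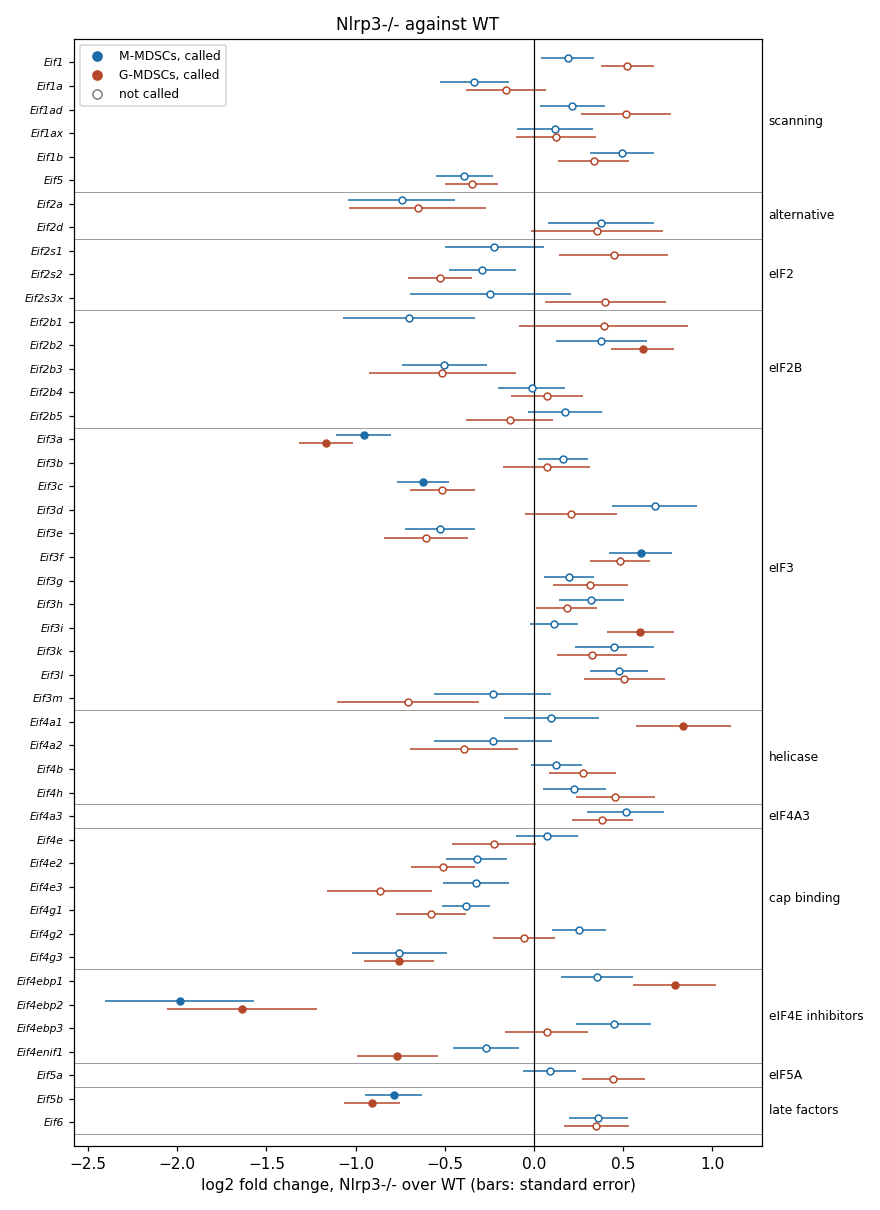
Log2 fold change of Nlrp3-/- over WT (bars: standard error) for the 46 tested members in M-MDSCs and G-MDSCs, ordered by role, with called members filled. Eif3a, Eif5b and Eif4ebp2 are filled on the negative side in both subsets, and 35 of the 46 members are open in both.

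Genes lower in Nlrp3-/- libraries had longer and AT-richer transcripts in general. The genes called lower in M-MDSCs had a median annotated length of 4961.5 bases and 44.0% GC, beside 3390 bases and 49.4% over all genes tested, and those called higher 2765 bases and 54.5%. In G-MDSCs the values were 4955 bases and 44.6% for lower and 2378 bases and 54.2% for higher genes. Members showed the same in length, at a median of 5454.5 bases for the 4 lower in M-MDSCs and 5784 bases for the 5 lower in G-MDSCs, beside 2795.5 bases over the 46 tested. In GC content the members lower in M-MDSCs had a median of 47.1%, beside 49.8% over the 46 tested. In G-MDSCs GC content ran the other way, at 50.2% for the lower and 47.9% for the higher members. With the counts corrected for a smooth trend in GC content and length, Eif3a stayed called at log2 fold changes of -0.65 and -0.76 (adjusted p = 0.0372 and 0.00798, edgeR), and Eif4ebp2 at -1.95 and -1.54 (adjusted p = 0.0213 and 0.0284, edgeR). Eif5b lost its call in both (adjusted p = 0.172 and 0.170, edgeR). Eif3c, Eif4ebp1, Eif4a1 and Eif3i also stayed called. Eif3f (0.57, adjusted p = 0.0894) in M-MDSCs, and Eif4g3 (-0.52, adjusted p = 0.122), Eif4enif1 (-0.72, adjusted p = 0.0526) and Eif2b2 (0.27, adjusted p = 0.333) in G-MDSCs, lost their call by the same edgeR fit. Eif4g2, an eIF4G relative without the eIF4E site, was called only after the correction, in M-MDSCs (0.71, adjusted p = 0.0227, against 0.25 before).

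**Figure D4:**
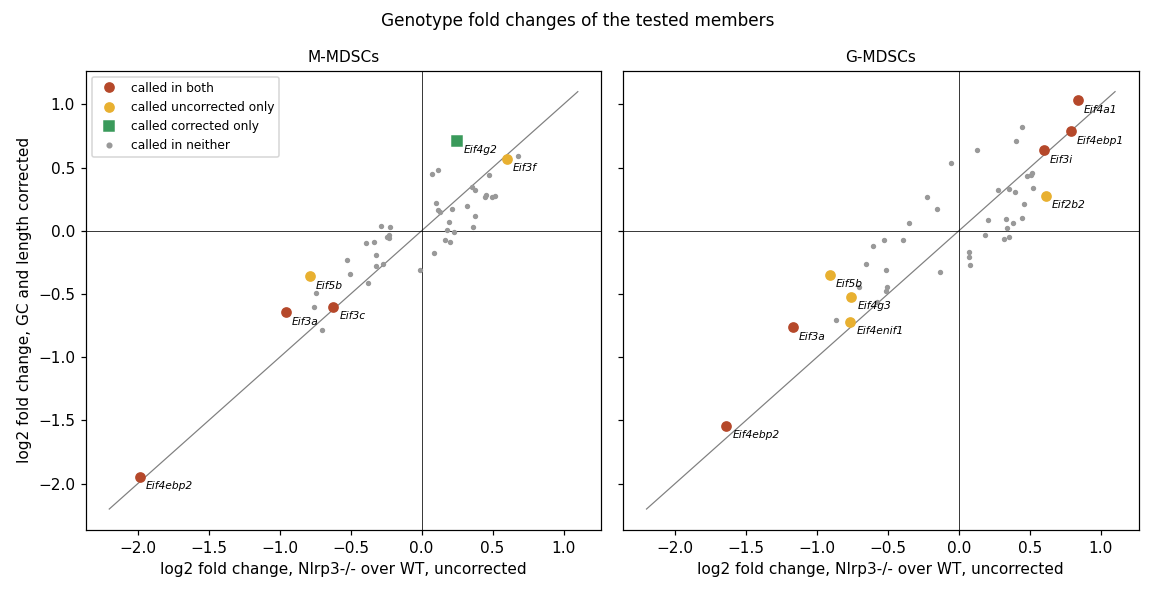
Genotype log2 fold changes of the 46 tested members before (horizontal) and after (vertical) correction for GC content and transcript length, with the line of equality, in M-MDSCs (left) and G-MDSCs (right). Eif4ebp2 stays on the line, Eif3a and Eif5b move toward 0, and Eif4g2 in M-MDSCs is called only after the correction.

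Markers of other cells and states moved with genotype in the same libraries. The 11 proliferation markers summed to 242 to 702 CPM in WT and 131 to 234 CPM in Nlrp3-/- M-MDSCs, and to 182 to 552 CPM and 105 to 275 CPM in G-MDSCs, with 2 of them lower by the edgeR test in each subset (Mki67 and Top2a). The 7 macrophage markers summed to 114 to 131 CPM in WT and 213 to 330 CPM in Nlrp3-/- M-MDSCs, with 6 higher, and to 134 to 245 CPM and 404 to 574 CPM in G-MDSCs, with 5 higher. No marker of either list was at 0 throughout a group. The eosinophil and basophil markers summed to 4.64 to 24.9 CPM in WT and 24.5 to 68.8 CPM in Nlrp3-/- M-MDSCs, with 1 of 2 tested higher, and to 25.7 to 51.8 CPM and 57.8 to 65.3 CPM in G-MDSCs, with 0 of 2 called by edgeR (both at an unadjusted p below 0.05). Of 8 neutrophil markers tested in M-MDSCs, Retnlg (31.4 to 164 CPM on average) and Mmp9 (4.89 to 20.6 CPM) were higher in Nlrp3-/- cells. The median log2 fold change of the 8 was -0.31, with 0 called lower. S100a8, S100a9, Ltf and Camp had lower means in Nlrp3-/- cells, the WT means including replicate 2 with its high neutrophil sum. In G-MDSCs 0 of 9 neutrophil markers were called higher and 1 lower. Of the B cell markers 0 were called higher and 1 lower in each subset, of 3 tested in M-MDSCs and 4 in G-MDSCs. In G-MDSCs the sums of the monocyte markers (638 to 948 CPM in WT, 1020 to 1226 CPM in Nlrp3-/- mice, 1 of 6 higher) and of the dendritic cell markers (154.5 to 206 and 213 to 271 CPM, 0 of 1 called by edgeR, though at an unadjusted p below 0.05) did not overlap between genotypes. The dendritic cell sum was almost all Itgax, at 150 to 203 CPM in WT and 209 to 268 CPM in Nlrp3-/- G-MDSCs. Of the same list, Clec9a averaged 2.67 CPM in WT and 2.03 CPM in Nlrp3-/- G-MDSCs. Their part in the genotype differences of the members was not tested. Without M-MDSC WT replicate 2, the library with the high neutrophil sum, M-MDSCs showed 0 members higher and 3 lower, since Eif3f and Eif3c lost their calls.

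Genotype effects of the members did not differ detectably between the subsets. In a model of all 16 libraries 0 of 46 members passed an adjusted p below 0.05 for the difference by edgeR's quasi-likelihood test, beside 3 of all 10696 genes tested (0.0280%). In simulated counts the edgeR test recovered 54% of genes changed only in Nlrp3-/- G-MDSCs, at median log2 differences of 1.6 and -1.55. Smaller differences could therefore be missed. DESeq2 also gave 0, and 4 members had an unadjusted p below 0.05. The lowest was that of Eif3i, whose genotype effect in G-MDSCs exceeded that in M-MDSCs by 0.60 on the log2 scale (SE 0.20, unadjusted p = 0.00720, adjusted p = 0.953, edgeR). Eif1 (0.45, SE 0.20, unadjusted p = 0.0397), Eif4a1 (0.86, SE 0.40, unadjusted p = 0.0430) and Eif5a (0.47, SE 0.22, unadjusted p = 0.0460) were the others in the edgeR fit.

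The second question was how the subsets differ within a genotype. In WT and in Nlrp3-/- mice alike, all 12 tested eIF3 genes were lower in G-MDSCs than in M-MDSCs, whereas Eif1, Eif5 and Eif4ebp1 were higher. In WT mice 5 members were higher and 21 lower in G-MDSCs by the edgeR test, 10.9% and 45.7% of those tested, beside 26.3% and 27.1% of 9739 genes. In Nlrp3-/- mice 3 were higher and 21 lower, 6.52% and 45.7%, beside 23.7% and 27.4% of 10071 genes. Both genotypes shared 18 lower members, 85.7% of either list, and 3 higher members, 60.0% of the WT list and 100% of the Nlrp3-/- list. The share of calls common to both genotypes was not computed over all genes, so this overlap only describes the lists. The median log2 fold change of the members was -0.52 in WT and -0.46 in Nlrp3-/- mice, against -0.047 and -0.12 over all genes tested. With the mouse as a block all 26 WT calls and 23 of the 24 Nlrp3-/- calls remained, the exception being Eif2s1 (adjusted p = 0.0649, edgeR). All 9 neutrophil markers were higher and 7 of the 8 monocyte markers lower in G-MDSCs in both genotypes, and the part of RNA from other cells was not tested. Without M-MDSC WT replicate 2, the library with the high neutrophil sum, 4 members were higher and 21 lower in WT mice.

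These directions depend in part on scaling, the TMM factors being 1.20 to 1.46 in M-MDSC and 0.722 to 0.804 in G-MDSC libraries. Scaled by library size alone, the median of all genes shifted from -0.047 to -0.79 in WT and from -0.12 to -0.83 in Nlrp3-/- mice. The calls then were 0 higher and 37 lower members in WT, and 2 higher and 34 lower in Nlrp3-/- mice, with member medians of -1.28 and -1.17. The eIF3 genes stayed lower, 12 of 12 in both genotypes, while Eif1, Eif5, Eif4ebp1 and Eif4enif1 lost their WT calls with log2 fold changes of 0.56, 0.22, 0.43 and 0.078. In Nlrp3-/- mice Eif1 (0.91) and Eif4ebp1 (0.88) stayed called and Eif5 (0.28) did not. Relative to the shifted median of all genes these values remain positive.

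The scaffold factor eIF3 gave the most even pattern. The 14 eIF3 genes together read 2277 ± 191 CPM in WT M-MDSCs and 1177 ± 141 CPM in WT G-MDSCs, and 2350 ± 404 CPM and 1192 ± 124 CPM in Nlrp3-/- mice (SD, n = 4). The 12 tested had log2 fold changes from -1.97 to -0.60 in WT (median -0.99) and from -1.77 to -0.63 in Nlrp3-/- mice (median -1.24). Eif3i read 104, 101, 109 and 95.3 CPM in WT M-MDSCs and 24.0, 27.4, 25.9 and 27.2 CPM in WT G-MDSCs. Its log2 fold change was -1.97 (SE 0.15, adjusted p = 5.46e-07) in WT and -1.49 (SE 0.16, adjusted p = 3.04e-06) in Nlrp3-/- mice by the edgeR test. Eif3b, a core subunit that contacts the ribosome, read 61.9, 58.9, 58.7 and 53.5 CPM in WT M-MDSCs against 15.4, 25.7, 19.9 and 17.9 CPM in WT G-MDSCs, and 59.4, 57.7, 72.7 and 67.1 CPM against 19.2, 18.5, 24.9 and 25.7 CPM in Nlrp3-/- mice. No library of one subset entered the range of the other, at log2 fold changes of -1.56 (SE 0.19, adjusted p = 2.52e-05) and -1.66 (SE 0.19, adjusted p = 6.21e-06) by the edgeR test.

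Eif3e read 121, 169, 192 and 146 CPM in M-MDSCs against 29.1, 60.2, 49.9 and 54.9 CPM in G-MDSCs of WT mice, and 134, 107, 88.8 and 96.6 CPM against 31.0, 40.0, 31.7 and 33.0 CPM in Nlrp3-/- mice, with log2 fold changes of -1.69 (SE 0.23, adjusted p = 6.36e-05) and -1.77 (SE 0.19, adjusted p = 2.61e-06) by the edgeR test. Eif3h read 298, 219, 264 and 245 CPM in M-MDSCs against 129.9, 119.5, 79.2 and 98.1 CPM in G-MDSCs of WT mice, and 230.5, 294, 423 and 319 CPM against 117, 134, 127 and 136 CPM in Nlrp3-/- mice, with log2 fold changes of -1.26 (SE 0.18, adjusted p = 0.000103) and -1.41 (SE 0.18, adjusted p = 1.38e-05) by the edgeR test. Both subunits belong to the part of the complex that budding yeast lacks, and both separated the subsets without overlap. Some of their reads may be shared, because 30.4% of the 50-base stretches at the 3′ end of Eif3e and 20.8% of those of Eif3h also occur in other annotated genes, as do 44.6% of those of Eif3m. Eif3l (-1.29, -1.28), Eif3k (-0.96, -1.09), Eif3c (-1.02, -0.91), Eif3m (-0.93, -1.40), Eif3f (-0.80, -0.93), Eif3g (-0.74, -0.63), Eif3d (-0.73, -1.21) and Eif3a (-0.60, -0.82) were lower as well, the values being log2 fold changes in WT and Nlrp3-/- mice. In WT mice Eif3d was lost without M-MDSC replicate 1 or 3 or G-MDSC replicate 3 or 4 (adjusted p up to 0.117, edgeR), Eif3m without M-MDSC replicate 2 or 3 or G-MDSC replicate 1 or 4 (up to 0.0987), and Eif3a without G-MDSC replicate 3 or 4, where the change was under 1.5-fold. In Nlrp3-/- mice Eif3g was lost in the same way without G-MDSC replicate 1, 2 or 4, so that 9 to 12 subunits in WT and 11 to 12 in Nlrp3-/- mice were called in fits without 1 library, and 11 in each with the GC and length correction and the mouse block, under which Eif3g (-0.56 and -0.52) did not reach 1.5-fold.

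**Figure D5:**
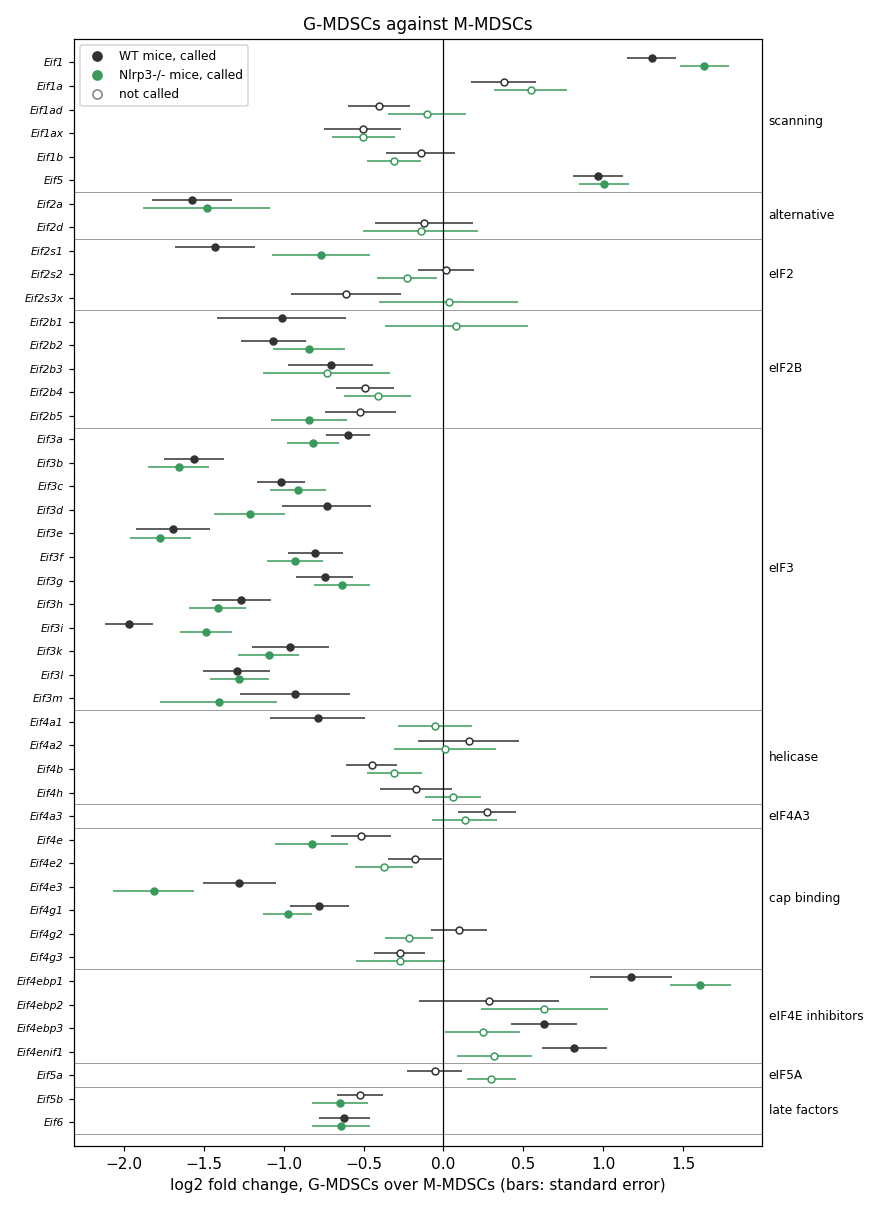
Log2 fold change of G-MDSCs over M-MDSCs (bars: standard error) for the 46 tested members in WT and in Nlrp3-/- mice, ordered by role, with called members filled. All 12 eIF3 genes are filled on the negative side in both genotypes, and Eif1, Eif5 and Eif4ebp1 are filled on the positive side.

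The start codon factors ran the other way, through 2 of their genes. Eif1 read 272, 335, 313 and 274 CPM in WT M-MDSCs and 658, 707, 774 and 803 CPM in WT G-MDSCs, and 316, 307, 326 and 389.6 CPM and 1046, 1121, 1052 and 1279 CPM in Nlrp3-/- mice. The subsets did not overlap, and the log2 fold change was 1.30 (SE 0.15, adjusted p = 1.96e-05) in WT and 1.63 (SE 0.15, adjusted p = 6.95e-07) in Nlrp3-/- mice by the edgeR test. Of all member counts of an M-MDSC library, Eif1 made up 4.44% to 5.61% in WT and 5.08% to 6.76% in Nlrp3-/- mice, and of those of a G-MDSC library 12.8% to 15.8% in WT and 18.7% to 21.7% in Nlrp3-/- mice. Eif5 read 297, 403, 363 and 374 CPM in M-MDSCs against 634, 755, 671 and 742 CPM in G-MDSCs of WT mice, and 286, 281, 224 and 283 CPM against 548, 605, 530.2 and 656 CPM in Nlrp3-/- mice, with log2 fold changes of 0.96 (SE 0.16, adjusted p = 0.000246) and 1.00 (SE 0.15, adjusted p = 8.39e-05) by the edgeR test and no overlap. Eif1a (0.38, 0.54), Eif1ad (-0.40, -0.10), Eif1ax (-0.50, -0.50) and Eif1b (-0.14, -0.31) were not called in either genotype. Of the 3′ end of Eif1, 23.0% of 50-base stretches also occur elsewhere in annotated genes.

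The eIF4E inhibitor genes had positive log2 fold changes in G-MDSCs, 4 of 4 in both genotypes, beside 48.4% of all genes in WT and 46.2% in Nlrp3-/- mice. With library size scaling Eif4ebp2 and Eif4ebp3 turn negative in both and Eif4enif1 does in Nlrp3-/- mice (-0.40). Eif4ebp1 rose in both genotypes, from 55.2 ± 8.21 to 124 ± 49.4 CPM in WT (1.17, SE 0.26, adjusted p = 0.00204, edgeR) and from 68.9 ± 15.3 to 228 ± 21.6 CPM in Nlrp3-/- mice (1.61, SE 0.19, adjusted p = 6.84e-06, edgeR), means ± SD with n = 4. The libraries given above show no overlap of the subsets in either genotype. Eif4enif1 rose in WT mice (0.82, SE 0.20, adjusted p = 0.00430, edgeR), reading 22.3 to 26.0 CPM in M-MDSCs and 30.1 to 54.5 CPM in G-MDSCs, and was 0.32 in Nlrp3-/- mice without a call. Eif4ebp3 was called in WT mice at 0.63 with overlap of the subsets. That call was lost without M-MDSC replicate 1, 2 or 4 or G-MDSC replicate 3 or 4, at adjusted p of 0.0526 to 0.0924 by edgeR. Eif4ebp2 was not called (0.28 in WT, 0.63 in Nlrp3-/- mice).

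The remaining roles were lower or not distinguishable in G-MDSCs. Of the cap-binding genes, Eif4e3, an eIF4E relative with weak cap affinity, fell (-1.28 in WT, -1.81 in Nlrp3-/- mice), though some of its reads may belong to an overlapping gene on the same strand, and the scaffold gene Eif4g1 fell (-0.78, -0.97). Eif4e itself fell in Nlrp3-/- mice (-0.82, SE 0.23, adjusted p = 0.00732, edgeR) and was -0.52 in WT mice (adjusted p = 0.0328, edgeR, under 1.5-fold). Eif4e2, Eif4g2, Eif4g3, Eif4a2, Eif4b, Eif4h, Eif4a3 and Eif5a were not called in either genotype, at log2 fold changes from -0.45 to 0.30. Eif4a1 fell in WT mice (-0.79, SE 0.30, adjusted p = 0.0397, edgeR), a call lost without M-MDSC replicate 2 or 3 or G-MDSC replicate 1 or 2 (adjusted p up to 0.106, edgeR), and was -0.051 in Nlrp3-/- mice. Eif2a, the alternative tRNA carrier, fell from 32.4 ± 6.10 to 10.8 ± 3.19 CPM in WT (-1.57, SE 0.25, adjusted p = 0.000224, edgeR) and from 18.8 ± 7.18 to 7.34 ± 2.93 CPM in Nlrp3-/- mice (-1.48, SE 0.40, adjusted p = 0.00604, edgeR), means ± SD with n = 4, the subsets overlapping in Nlrp3-/- mice. Eif2d was not called.

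Eif2s1 fell in WT (-1.43, SE 0.25, adjusted p = 0.000419, edgeR) and at the threshold in Nlrp3-/- mice (-0.76, SE 0.31, adjusted p = 0.0483, edgeR), where 7 of the 8 fits without 1 library, all but that without M-MDSC replicate 3, lost the call (adjusted p = 0.0545 to 0.134), as did the mouse block. Eif2s2 (0.014, -0.23) and Eif2s3x (-0.61, 0.034) were not called. Of eIF2B, Eif2b2 fell in WT (-1.06) and Nlrp3-/- mice (-0.84, lost without M-MDSC replicate 3 at -0.57). Eif2b1 (-1.01) and Eif2b3 (-0.71) were called lower in WT mice, the first lost without any library but M-MDSC replicate 1 and G-MDSC replicate 3, the second without M-MDSC replicate 3 or 4 or G-MDSC replicate 2, 3 or 4 (adjusted p up to 0.117 and 0.0822, edgeR), and Eif2b5 fell in Nlrp3-/- mice (-0.84). Whether these effects differ between genotypes is the difference tested in the 16-library model, which called 0 members but can miss smaller differences. Eif6 fell in WT (-0.62, lost without G-MDSC replicate 4) and Nlrp3-/- mice (-0.64, lost without M-MDSC replicate 4 or G-MDSC replicate 1 or 4), and Eif5b in Nlrp3-/- mice (-0.65, SE 0.17, adjusted p = 0.00628, edgeR), lost without M-MDSC replicate 2 or G-MDSC replicate 2. In WT mice Eif5b passed the adjusted p (-0.52, SE 0.14, adjusted p = 0.00791, edgeR) at under 1.5-fold.

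Members with a TOP-like run at the start had a median log2 fold change between subsets of -0.78 in WT (9 tested, 5 lower and 1 higher) and -0.84 in Nlrp3-/- mice (6 lower). Those without one had -0.49 (27 tested, 10 lower and 2 higher) and -0.31 (10 lower and 2 higher). All tested eIF3 genes were lower, and 3 of the 10 eIF3 genes with a start sequence (Eif3j1, not tested, among them) had the run shown above. The decrease was thus not limited to genes in which a run was found. The search used annotated starts only and found a run in 47.7% of ribosomal protein genes. Whether members without a run carry the motif was not tested. Between genotypes the medians with and without the run were 0.18 and -0.013 in M-MDSCs and 0.40 and 0.13 in G-MDSCs.

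Genes that act on or beside the initiation factors were examined as lists. Of 8 genes of the eIF2 alpha kinases and their stress arm, 0 were higher and 1 lower between genotypes in each subset, Eif2ak2 (PKR), at -0.66 (SE 0.19, adjusted p = 0.0462) in M-MDSCs and -1.03 (SE 0.26, adjusted p = 0.0153) in G-MDSCs by edgeR, and both calls were lost with the GC and length correction (adjusted p = 0.189 and 0.11). Between subsets Ddit3 (CHOP), a target of the stress arm, was higher in G-MDSCs (2.48 in WT, 2.45 in Nlrp3-/- mice), as was the kinase gene Eif2ak3 (PERK; 1.28, 1.56), and Eif2ak2 (-0.82, -1.19) and Eif2ak4 (GCN2; -1.19, -1.47) were lower. Counts were 2 higher and 2 lower of 8 in WT and 3 and 2 in Nlrp3-/- mice, where Ppp1r15a (1.36) was the third. Of 12 genes of mTORC1 and the kinases that phosphorylate initiation factors, 0 were called between genotypes in M-MDSCs by edgeR (5 at an unadjusted p below 0.05), and 2 were lower in G-MDSCs, Rps6kb1 (-0.91, SE 0.18, adjusted p = 0.00380, edgeR; -0.37 and not called after the GC and length correction) and Pdcd4 (-0.87, SE 0.20, adjusted p = 0.00766, edgeR), an inhibitor of eIF4A. Between subsets the eIF4E kinase genes Mknk1 (1.21, 1.74) and Mknk2 (0.66, 0.74) were higher in G-MDSCs, and Rptor (-1.70, -2.09) and Larp1 (-1.72, -1.57), which binds TOP mRNAs, were lower, 2 of 12 in each direction in WT and 2 higher and 3 lower in Nlrp3-/- mice, Tsc1 (-0.98) being the third.

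The list of poly(A)-binding, recycling and helicase partners contained 3 genes lower in Nlrp3-/- M-MDSCs of 10 tested and 4 lower in G-MDSCs of 11 tested, and 0 higher. Pabpc1, the poly(A)-binding protein that bridges to eIF4G, read 1439 ± 179 CPM in WT and 624 ± 205 CPM in Nlrp3-/- M-MDSCs, and 910 ± 230.1 and 429 ± 111 CPM in G-MDSCs (SD, n = 4), without overlap. Its log2 fold changes were -1.17 (SE 0.23, adjusted p = 0.00938) and -1.17 (SE 0.22, adjusted p = 0.00288) by the edgeR test and stayed called with the GC and length correction. Dhx29, a helicase for structured leaders, fell in both (-2.04 and -2.93), from mean levels of 9.45 to 2.11 CPM and of 8.33 to 1.13 CPM, which rest on 0 to 60 counts per library, and the M-MDSC call was lost with the GC and length correction. Dhx36 (-1.11) was the other gene lower in M-MDSCs and Paip2 (-1.06) and Pabpc4 (-2.03) the others in G-MDSCs. Between subsets Ddx3x, a helicase of the scanning step, was higher in G-MDSCs (1.64, 1.62), and 3 genes in WT and 2 in Nlrp3-/- mice of 10 were lower, Pabpc1 (-0.66, -0.66) and Mcts1 (-0.99, -0.79) in both.

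Of the elongation and termination genes, 0 were called between genotypes by the edgeR test, of 10 tested in M-MDSCs (1 at an unadjusted p below 0.05) and 9 in G-MDSCs (2). Between subsets 2 of 9 were higher in G-MDSCs in both genotypes, Eef2k (2.92, 2.58), the kinase that inhibits elongation factor eEF2, and the release factor gene Etf1 (0.93, 1.00). In WT 6 and in Nlrp3-/- mice 5 were lower, among them Eef2 (-0.95, -1.15) and Eef1d (-0.99, -1.02). Of the 3 mitochondrial initiation genes 0 were called between genotypes by edgeR (1 in each subset at an unadjusted p below 0.05), and Mtif2 (-1.83, -2.33) and Mtfmt (-1.15, -1.16) were lower in G-MDSCs. Of 8 genes for hypusine synthesis and ribosome assembly, 3 were lower in Nlrp3-/- cells of each subset and 0 higher. Sbds, which helps to release eIF6 from large subunits, fell by 1.13 on the log2 scale in M-MDSCs (SE 0.28, adjusted p = 0.0260, edgeR) and by 1.33 in G-MDSCs (SE 0.26, adjusted p = 0.00347, edgeR), and Npm1, a nucleolar chaperone, fell as well (-0.76 and -0.81), although with the GC and length correction neither of its calls held. Ncl (-0.69) in M-MDSCs and Nop56 (-1.24) in G-MDSCs were the third. Between subsets 4 of 8 in WT and 5 of 8 in Nlrp3-/- mice were lower in G-MDSCs, among them Npm1 (-1.14, -1.20) and Fbl (-2.50, -1.60). Median log2 fold changes between subsets, WT then Nlrp3-/- mice, were 0.14 and 0.16 for the eIF2 alpha kinase list, 0.12 and -0.21 for the mTORC1 list, -0.095 and -0.45 for the poly(A) list, -0.72 and -0.98 for elongation and termination, -1.15 and -1.16 for mitochondrial initiation, and -0.72 and -0.97 for hypusine synthesis and ribosome assembly, beside -0.047 and -0.12 over all genes. Between genotypes, M-MDSCs then G-MDSCs, they were -0.48 and -0.35, 0.25 and 0.13, -0.65 and -1.07, 0.10 and 0.080, 0.33 and -0.28, and -0.64 and -0.35 in the same order, beside 0.066 and 0.034.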

How the data were processed

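Spleen M-MDSCs and G-MDSCs of B16.F10-bearing mice were sorted by the authors and QuantSeq 3′ FWD libraries were sequenced after 15 or 17 amplification cycles, with no library named. Per the study's methods and the labels, the authors aligned reads to mm10 with HISAT2 2.1.0, counted them by strand with HTSeq and used edgeR 3.14.0. The deposited values are raw counts per gene symbol, 1 file per library, and carry no molecular identifiers, so intervals and floors cover counting error only. Groups were taken from the labels. Each sorted sample came from 1 mouse, and p-values measure the spread between mice.

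Counts were compared with edgeR 4.0.16 (filterByExpr, TMM, glmQLFit, glmQLFTest) in R 4.3.3, separately for each of 4 comparisons of 8 libraries, on the whole table, with Benjamini-Hochberg adjustment over all genes tested. A call needed an adjusted p below 0.05 and a change over 1.5-fold. Standard errors were obtained from the fold change and its F statistic (|log2 fold change|/√F). Fold changes therefore use TMM factors of their own comparison, and the CPM given use factors over 16 libraries. A separate model of all 16 libraries tested whether genotype effects differ between subsets. Alternatives were DESeq2 1.42.0, its size factors in edgeR, library size scaling, no filter, a correction for GC content and transcript length (splines with 4 degrees of freedom each; combined with the mouse block between subsets), the replicate number as a block, and each library left out in turn. M-MDSC and G-MDSC libraries with the same number come from the same mouse by the labels and methods. The correlation of their deviations from the group means was 0.0971 to 0.397 in WT and 0.00821 to 0.382 in Nlrp3-/- mice. The 24 pairs of libraries within groups held 0 identical pairs and differed beyond counting error in each.

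GENCODE M21 (GRCm38) gave lengths, GC content and strand overlaps for 23376 symbols directly and 651 through older symbols, and RefSeq start sequences were found for 39 of the 51 members. Members named with values per library were those called between genotypes and the 4 with the smallest p per direction between subsets, with Eif2s3x and Eif2s3y always given, and other lists by up to 4 called genes. Members and lists were chosen with earlier results of these data known. The scripts were tested on simulated data with known changes. Without a GC trend, uncorrected fits of the 4 comparisons recovered 78.0% to 87.9% of them, and 4.07% to 6.49% of calls were false. With a GC trend of fixed size, not fitted to these data, 88.8% to 90.6% of uncorrected calls were false. With the correction 2.96% to 6.17% were. Figures were drawn with matplotlib 3.10.9 in Python 3.11.15.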

Additional observations from a re-analysis of the deposited data

Results flagged for a closer look

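In 2 of 64 groups of 4 libraries (16 named members in 4 groups each) 1 library lay far from the other 3 by Dixon's ratio of gap to range, where chance gives about 1 in 20. Eif4ebp2 read 20.98 CPM in G-MDSC Nlrp3-/- replicate 4, against 49.4 to 52.2 CPM in the other 3 libraries of the group (ratio 0.911). Without that library the lower level of Eif4ebp2 in Nlrp3-/- G-MDSCs kept its direction at -1.40 on the log2 scale with an adjusted p of 0.0531 by edgeR's quasi-likelihood test. Eif5 read 224.3 CPM in M-MDSC Nlrp3-/- replicate 3, against 281 to 286 CPM in the other 3 (ratio 0.919). Eif5 was called higher in G-MDSCs of Nlrp3-/- mice in each of the 8 fits without 1 library.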

How the results depend on the processing

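Of 64 called member comparisons 1 changed direction under an alternative, Eif4ebp3 between subsets of WT mice (0.63, and -0.12 with library size scaling). Uncalled values near 0 also changed sign, such as Eif4a1 between subsets of Nlrp3-/- mice (-0.051, and 0.10 with the GC content and length correction and the block). For the members given with values per library, 247 values under the alternatives other than leaving out a library stayed on the same side of the threshold and 26 lost the call, and without 1 library 255 stayed and 57 lost it. Of the 64 calls 41 were kept in all 8 such fits. Between genotypes in M-MDSCs, the 1 higher member became 0 with DESeq2, with DESeq2 size factors, without the filter and with the replicate block, and 2 with library size scaling. The 4 lower members became 2 with the replicate block, and the member median of 0.094 became 0.20 with library size scaling and -0.0025 with the GC content and length correction. Without 1 library the counts were 0 to 2 higher (2 without WT or Nlrp3-/- replicate 1, 0 without any of the other 6) and 2 to 7 lower (7 without Nlrp3-/- replicate 1, 2 without Nlrp3-/- replicate 4), with medians of 0.0059, again without Nlrp3-/- replicate 4, to 0.12. In G-MDSCs the 4 higher and 5 lower members became 1 and 2 with the replicate block, the lower members became 2 with the GC content and length correction, and the median of 0.10 became 0.23 with library size scaling. Without 1 library 0 to 3 were higher (0 without WT replicate 2 or Nlrp3-/- replicate 2, 3 or 4; 1 without WT replicate 4; 2 without WT replicate 1 or 3) and 2 to 7 lower (3 without Nlrp3-/- replicate 2, 2 without Nlrp3-/- replicate 4), with medians of 0.079 to 0.22, the highest without WT replicate 2. WT and Nlrp3-/- libraries with the same number come from different mice and share only that number. Their deviations correlated at -0.452 to 0.0177 in M-MDSCs and -0.263 to -0.0438 in G-MDSCs, and 0 of the 8 correlated best with their own number. Between subsets, library size scaling gave 0 higher and 37 lower members in WT mice (median -1.28) and 34 lower in Nlrp3-/- mice (median -1.17), as that scaling moves all genes. The mouse as a replicate block gave 5 higher and 21 lower members in WT and 3 and 20 in Nlrp3-/- mice, and changed no call but that of Eif2s1. Without 1 library 4 to 5 were higher and 15 to 21 lower in WT (medians -0.63 to -0.45) and 3 to 4 higher and 18 to 20 lower in Nlrp3-/- mice (-0.52 to -0.40). Members with a different genotype effect in the subsets numbered 0 in each fit, including one with the mouse as a block that was chosen after seeing the data. Where a cause is not given by the alternative itself, the cause was not tested. Eif5a2 could not be tested at this depth.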
